A study of Mus musculus with 39 samples.

Results

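Foxa1, Foxa2, Foxa3, Hnf4a, Onecut1, Cebpa, Cebpb, Cebpd and Nr5a2 encode transcription factors that establish or maintain the gene programme of the hepatocyte, and their levels were followed here in the livers of mice exposed to an aggressor mouse and of control mice. The 9 genes, of 17016 genes measured, were found on the arrays through the RefSeq accession of each probe, which gave 12 probes, 3 for Hnf4a, 2 for Cebpa and 1 for each of the other 7 genes. The genes were chosen from a list made with earlier results of these same arrays in view, so their counts and values below are a description and no independent evidence of a change.

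The mice were male C57BL/6J animals, which the methods give as 5 to 6 weeks old at the start, singly housed throughout. Aggressor-exposed (AggE) mice spent daily sessions in a small cage placed inside the home cage of a trained SJL male, with short attacks, for 5 or 10 days, while Ctrl mice had the same cages, schedule and food deprivation with no aggressor. Livers were taken at 4 points, with one mouse per array: 24 hrs after the last of 5 sessions (4 Ctrl, 5 AggE), 24 hrs after the last of 10 (4 Ctrl, 5 AggE), 1.5 wks after 5 (4 Ctrl, 5 AggE) and 4 wks after 10 (6 Ctrl, 6 AggE). These are called 24 hrs post-5-day stressor, 24 hrs post-10-day stressor, 1.5 wks and 4 wks. Shortly before the terminal bleed mice were placed across a partition from an aggressor. The methods describe this for subject mice and do not say outright whether Ctrl mice had it too. The RNA came from whole liver, in which fewer cells of a type and less RNA per cell cannot be told apart.

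Each of the 39 arrays set Cy-5 labeled liver RNA against Cy-3 labeled RNA pooled from mouse tissue cell lines, and every level below is the log2 ratio of liver to that reference RNA. A ratio can be followed for a gene across mice but does not rank different genes by abundance. Arrays differed in brightness: the share of probes well above background ran, 24 hrs after 5 days, from 33.3% to 40.2% (median 38.9%) in the Ctrl and from 21.1% to 37.0% (median 30.1%) in the AggE mice, and from 39.7% to 54.9% at the same time after 10 days. At 1.5 wks it ran from 20.0% to 57.5% in the AggE and from 24.5% to 50.6% in the Ctrl mice, with a median of 29.2% in both, and at 4 wks it ran from 51.1% to 79.6%. Of the 11 slides 6 held a single group, and at both 24 hrs points no slide held AggE and Ctrl arrays together, so slide and group cannot be told apart there. For the AggE arm of the first point some labels name a regimen of 1 day, and the mice were grouped by the remaining label text. At 1.5 wks the titles of all 5 AggE mice and of 1 of 4 Ctrl mice carry a 10, those of the other 3 Ctrl mice a 5, while every description there says 5 days. If the titles were right, each 1.5 wks difference below would set mice of a 10-day regimen against mostly 5-day controls.

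FOXA factors are pioneer factors, which bind their sites in compacted chromatin and open it for others. HNF4A is the nuclear receptor at the centre of the hepatocyte network, ONECUT1 (also called HNF6) acts beside it, and NR5A2 (LRH-1) is a nuclear receptor of bile acid and cholesterol genes. Of the C/EBP factors, C/EBPα maintains metabolic genes of the resting liver, whereas C/EBPβ and C/EBPδ are known for their role in the acute phase response and in regeneration. These factors bind one another's regulatory regions, and ONECUT1 is known to activate Foxa2 and Hnf4a in the liver.

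Because Foxa2 and Onecut1 were the pair of members that moved most closely together across mice (below), the windows upstream of the member genes were searched for the ONECUT motif. The letters searched were ATTGATT and ATCGATT on both strands, in windows of the 250 bases before a start. Of 32851 such windows 983 held one of them (2.99%). Of the 12 windows of 8 member genes, 2 held it, those of Foxa2 and Hnf4a. They are printed 5′ to 3′ along the gene's strand, from RefSeq and the GRCm38.p6 assembly, up to the last base outside the annotated gene, with the match in capitals.
Foxa2, chr2:148046970-148047219, minus strand: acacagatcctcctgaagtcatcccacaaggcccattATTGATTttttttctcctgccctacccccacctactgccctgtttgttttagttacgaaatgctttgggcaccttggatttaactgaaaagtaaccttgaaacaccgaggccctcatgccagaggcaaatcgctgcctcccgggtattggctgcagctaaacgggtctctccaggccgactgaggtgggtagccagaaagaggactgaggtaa
Hnf4a, chr2:163506607-163506810, plus strand: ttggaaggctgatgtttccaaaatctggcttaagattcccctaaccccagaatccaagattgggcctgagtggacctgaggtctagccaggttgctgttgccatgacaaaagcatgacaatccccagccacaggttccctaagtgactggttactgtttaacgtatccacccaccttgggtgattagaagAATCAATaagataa
The match lay 213 bases before the start of Foxa2 on the gene's own strand, and 60 bases before a start of Hnf4a, which lies inside the annotated gene, on the opposite strand. A match of letters is a description and not a binding site, and no binding was measured here. The FOXA letters TGTTTAC or TGTTTGC, in 7.29% of all windows, were in the Foxa1 window 141 bases before its start and in no other member's window. Motifs of C/EBP (in 9.56% of all windows) and of HNF1 (0.737%) were each matched in 1 window of Nr5a2, and those of HNF4A (1.14%) and NR5A2 (1.56%) in none of the 12.

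All 9 factors were detected, but not in all mice. Foxa2 (chr2:148042877-148046969), Hnf4a (chr2:163506811-163572907), Onecut1 (chr9:74861921-74889648), Cebpa (chr7:35119293-35121928), Cebpb (chr2:167688915-167690432) and Nr5a2 (chr1:136842562-136960448) were well above background on 39 of 39 arrays. Cebpd (chr16:15887286-15889545) was so on 37, Foxa3 (chr7:19013283-19023539) on 33 and Foxa1 (chr12:57540628-57548029) on 22. Relative to the reference RNA, Foxa2, Foxa3, Hnf4a, Onecut1, Cebpa and Nr5a2 were above 0 in all 39 livers and Cebpd in 0 of 39, where its log2 ratio ran from -3.32 to -1.13.

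**Figure D1:**
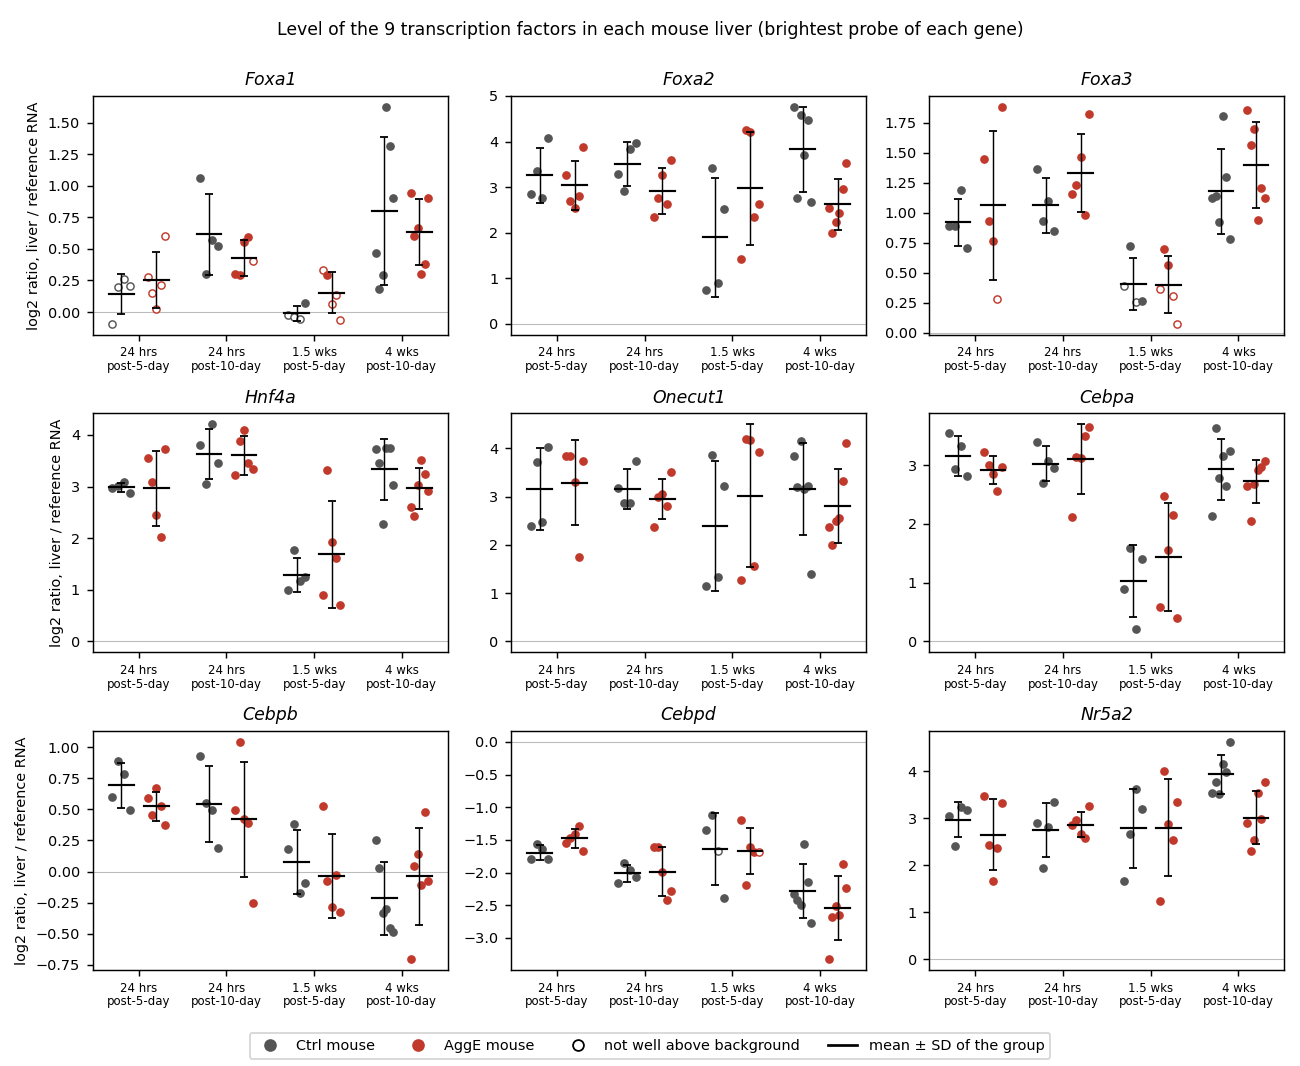
Each panel shows 1 transcription factor, with the log2 ratio of liver to reference RNA on the y axis and the 4 time points on the x axis. Points are single mice (Ctrl and AggE side by side, open where the probe was not well above background) and bars are the group mean and SD. AggE and Ctrl values overlap in every panel and at every point, and the lowest values of Hnf4a and Cebpa stand at 1.5 wks.

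No member was called between AggE and Ctrl mice at any point: with limma and an adjusted p of 0.05 or less, 0 of 9 passed at each of the 4 points. The same limit called 3.19% of all genes 24 hrs after 5 days, 0.094% 24 hrs after 10 days, 0% at 1.5 wks and 4.11% at 4 wks. Without adjustment, a p of 0.05 or less was reached by 0, 0, 1 (Foxa2) and 2 (Foxa2 and Nr5a2) members, beside 16.8%, 2.82%, 2.49% and 22.6% of all genes. For none of the 9 were AggE and Ctrl values fully apart at any point, while that was so for 7.51%, 1.85%, 0.844% and 1.89% of all genes. The log2 fold changes (AggE minus Ctrl) had a median over the 9 of -0.02, -0.03, 0.16 and -0.26 at the 4 points in this order, with 4, 4, 6 and 2 members higher in AggE mice. Foxa1 is counted in these figures although it was not well above background in any mouse at the first point and in few at 1.5 wks, where the median is its own value. The median of all genes lay within 0.01 of 0 at every point.

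**Figure D2:**
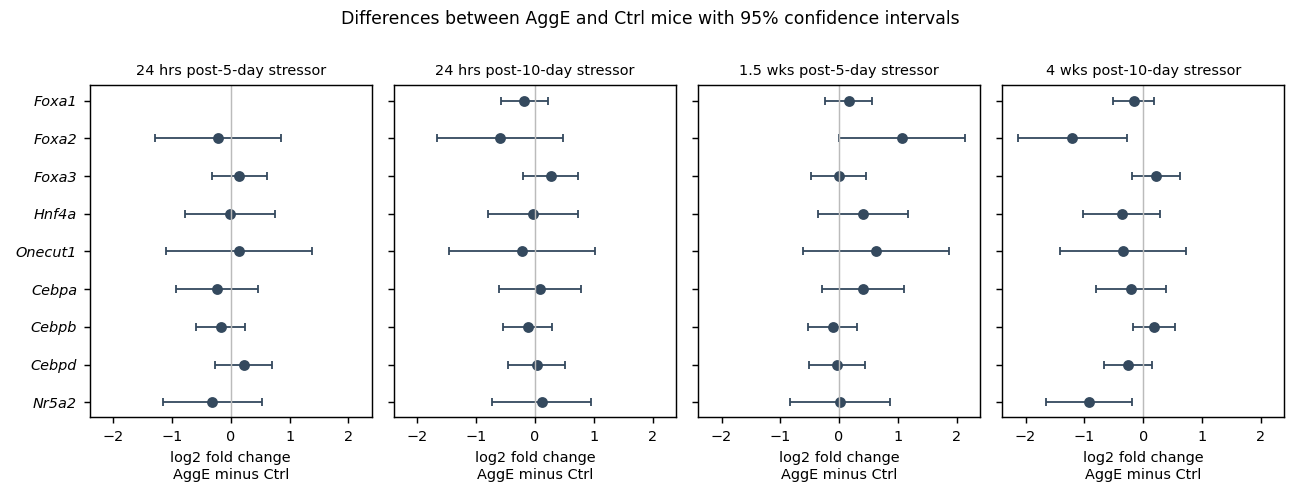
Each panel shows 1 time point, with the log2 fold change of AggE over Ctrl on the x axis, the factors on the y axis and lines for the 95% confidence interval of the limma fit. Foxa1 at 24 hrs post-5-day stressor is left out because it was not well above background in any of those mice. The intervals that do not hold 0 are those of Foxa2 at 1.5 wks (lower limit 0.00) and of Foxa2 and Nr5a2 at 4 wks.

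No member was called for a difference between time points either. Between the 24 hrs fold changes after 5 and 10 days, 0 of 9 members were called (all genes 0.0353%, and 6.29% unadjusted). Between 24 hrs and 1.5 wks after 5 days, 0 of 9 were called (0.0999%, and 7.62% unadjusted), and between 24 hrs and 4 wks after 10 days again 0 of 9 (0.0823%, and 9.99% unadjusted). Without adjustment 0 members reached this limit in any of the 3. The largest were Foxa2 between 24 hrs and 1.5 wks, with -1.29 (SE 0.75, 95% interval -2.81 to 0.23, limma adjusted p = 0.721), and Nr5a2 between 24 hrs and 4 wks, with 1.04 (SE 0.55, -0.08 to 2.15, limma adjusted p = 0.598). These are readings of the brightest probes. The second probe of Hnf4a differed by -1.12 between 24 hrs and 4 wks (SE 0.45, -2.03 to -0.22, limma adjusted p = 0.490), past the limit without adjustment.

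Among the pioneer factors, Foxa2 had the widest differences. At 4 wks its log2 ratios were 4.76, 2.77, 4.57, 3.70, 4.48 and 2.68 in the Ctrl mice and 2.55, 2.00, 2.24, 2.44, 2.95 and 3.54 in the AggE mice. Of the AggE mice, 4 lay below the lowest Ctrl mouse, and the Ctrl mice fell into 4 of at least 3.70 and 2 near 2.7 that sat among the AggE values. The means were 3.83 ± 0.93 (SD, n = 6) and 2.62 ± 0.55 (SD, n = 6), a difference of -1.21 (SE 0.45, 95% interval -2.13 to -0.28, limma adjusted p = 0.122). On the slide that held 3 Ctrl and 1 AggE array of this point, the difference was -1.07. The Ctrl mice on that slide averaged 3.62, and those on the other Ctrl slide 4.04.

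At 1.5 wks the Foxa2 difference had the other sign. Its log2 ratios were 0.74, 3.42, 0.90 and 2.53 in the Ctrl and 1.42, 4.25, 4.20, 2.35 and 2.64 in the AggE mice, so that 2 Ctrl mice lay below all others and 2 AggE mice above all others. The difference was 1.07 (SE 0.53, 95% interval 0.00 to 2.15, limma adjusted p = 1.00), and without Ctrl mouse 1, the lowest, it was 0.69. Within the slide shared by 3 Ctrl and 1 AggE array it was 0.95, and within the scan days 0.96 (3 Ctrl, 4 AggE) and 1.72 (1 of each). At the 24 hrs points the differences were -0.22 (SE 0.53) after 5 days and -0.59 (SE 0.53) after 10 days. The first turned to 1.04 with Feature Extraction processed signals (past the limit without adjustment, limma adjusted p = 0.239).

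Foxa3 and Foxa1 were dimmer, and their differences depended on the processing. Foxa3 differed by 0.14 and 0.27 at the 24 hrs points, -0.00 at 1.5 wks, where it was well above background in 2 of 4 Ctrl and 2 of 5 AggE mice, and 0.22 at 4 wks. With the deposited log ratios the Foxa3 differences were -1.86 at the first point (past the limit without adjustment, limma adjusted p = 0.317) and -1.03 at 1.5 wks. Foxa1 was not well above background in any mouse at 24 hrs post-5-day stressor and in 1 Ctrl and 1 AggE mouse at 1.5 wks, and no fold is given for the former. After 10 days of exposure it differed by -0.18 (24 hrs) and -0.17 (4 wks), and at 1.5 wks by 0.16, with a range from -0.18 with slide as a fixed block to 1.69 with Feature Extraction processed signals. In the Ctrl mice at 4 wks Foxa1 read 0.47, 0.18, 0.29, 1.63, 1.32 and 0.90, and the arrays of these mice lay on 2 slides whose means were 0.31 and 1.28. The AggE values, 0.30 to 0.94, lay within the Ctrl range.

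Hnf4a by its brightest probe showed no difference 24 hrs after the stressor that exceeded its error. Its differences were -0.02 (SE 0.38, 95% interval -0.78 to 0.75) after 5 days and -0.03 (SE 0.38, -0.79 to 0.74) after 10 days. They depended on the processing: with the deposited log ratios the first was -1.52 (limma adjusted p = 0.216), and without normalization between arrays the other was -0.82. At 1.5 wks the difference was 0.40 (SE 0.38) and at 4 wks -0.37 (SE 0.32, limma adjusted p = 0.565). At 24 hrs post-5-day stressor the Ctrl mice read 2.97, 3.01, 3.09 and 2.87 and the AggE mice 3.54, 3.09, 2.45, 2.02 and 3.73. The Ctrl values lay close together and the AggE values spread on both sides of them, which was not tested as a difference in spread.

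Onecut1, the partner of HNF4A and FOXA2, varied most from mouse to mouse. At 1.5 wks it read 1.16, 3.86, 1.34 and 3.21 in the Ctrl and 1.27, 4.19, 4.17, 1.55 and 3.92 in the AggE mice. Both arms held mice of 1.55 or less and mice of 3.21 or more with none between, and the difference of 0.63 had an SE of 0.61. At 4 wks it read 3.85, 3.20, 4.15, 3.17, 3.22 and 1.40 in the Ctrl and 2.38, 2.00, 2.50, 2.56, 3.32 and 4.11 in the AggE mice, a difference of -0.35 (SE 0.53, limma adjusted p = 0.774). The Ctrl arrays of 4 wks lay on 2 slides, whose Onecut1 means were 3.73 and 2.60. At 24 hrs the differences were 0.14 and -0.22 after 5 and 10 days, each with an SE of 0.61.

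No C/EBP gene was called between arms at any point. Cebpa differed by -0.23, 0.08, 0.41 and -0.21 at the 4 points in order, with SE of 0.34, 0.34, 0.34 and 0.30. The first of these ran from -0.96 without normalization between arrays to 0.91 with Feature Extraction processed signals (past the limit without adjustment, limma adjusted p = 0.291). Cebpb, an early gene of the acute phase response, differed by -0.17, -0.12, -0.11 and 0.18 (SE 0.21, 0.21, 0.21 and 0.18). At 24 hrs post-5-day stressor Cebpb read 0.60, 0.89, 0.79 and 0.50 in the Ctrl and 0.59, 0.45, 0.67, 0.53 and 0.37 in the AggE mice. Cebpd differed by 0.22, 0.03, -0.04 and -0.26 (SE 0.24, 0.24, 0.24 and 0.20).

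Of the listed acute phase genes that C/EBP factors act on, 7 of 15 rose in the AggE arm 24 hrs after 5 days (median log2 fold change 1.33, beside 3.19% of all genes called in either direction) and 5 of 15 after 10 days (median 1.05, beside 0.094%). Of the Kupffer cell markers, 6 of 6 were higher in the AggE arm 24 hrs after 10 days, with a median of 0.40. Of these, 0 were called and 2 were past the limit without adjustment, beside 2.82% of all genes. After 5 days, where the acute phase median was larger, 4 of 6 were higher, with a median of 0.09. There 0 were called and 1 was past that limit, beside 16.8% of all genes. The mean of these 6 markers ran from 1.35 to 1.97 in the Ctrl and from 2.11 to 2.36 in the AggE mice after 10 days, which do not overlap, and from 1.78 to 2.17 and 1.93 to 2.39 after 5 days, which do. Their part in the acute phase result was not tested. The serum amyloid genes led, with Saa3 at 4.23 (limma adjusted p = 2.43e-08) and Saa1 at 3.75 (adjusted p = 2.77e-06) after 5 days, and Saa1 at 3.50 (adjusted p = 1.31e-05) and Saa3 at 3.33 (adjusted p = 2.54e-06) after 10 days. Lcn2, whose protein binds bacterial siderophores, was at least 6.27-fold higher after 5 days (adjusted p = 4.74e-08) and at least 5.28-fold higher after 10 days (adjusted p = 2.54e-06), as a bound because its Ctrl values were not well above background. The mRNA of Cebpb and Cebpd, in the same mice, differed by no more than 0.22 on the log2 scale at both points in the main analysis. Other settings gave larger values after 5 days. Cebpb was -0.37 with the Cy-5 channel alone (past the limit without adjustment, limma adjusted p = 0.208), and Cebpd 0.43 without normalization between arrays. Cebpd passed that limit with only the groups of the comparison fitted (limma adjusted p = 0.272). The 95% intervals of Cebpb in the main analysis, -0.59 to 0.25 and -0.54 to 0.29, and of Cebpd, -0.26 to 0.70 and -0.45 to 0.51, hold no change of 1 or more. These intervals take the arrays as independent, although arrays of a slide were alike (consensus correlation 0.32). As no slide held both arms at these points, error between slides is left out, and the intervals cannot exclude such a change.

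Nr5a2, at 4 wks, was the other gene that reached the limit without adjustment. Its log2 ratios were 3.55, 3.78, 3.52, 4.16, 3.98 and 4.63 in the Ctrl and 2.91, 2.31, 2.55, 3.53, 2.99 and 3.78 in the AggE mice. Of the AggE mice, 4 lay below all Ctrl mice and 2 among the lower ones. The means were 3.94 ± 0.42 (SD, n = 6) and 3.01 ± 0.56 (SD, n = 6), a difference of -0.92 (SE 0.36, 95% interval -1.65 to -0.20, limma adjusted p = 0.132). On the slide with 3 Ctrl and 1 AggE array it was -1.35. The Ctrl mice on that slide averaged 4.26, and those on the other Ctrl slide 3.62. At the other points Nr5a2 differed by -0.31, 0.11 and 0.02, each with an SE of 0.42. With Feature Extraction processed signals the first was 0.67 and the one at 1.5 wks 0.78 (past the limit without adjustment, limma adjusted p = 0.794), and without normalization between arrays the one 24 hrs after 10 days was -0.62.

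The scaling changed which members were called at 4 wks. Without normalization between arrays, both Foxa2 (-2.14, limma adjusted p = 0.0337) and Nr5a2 (-1.83, adjusted p = 0.0295) were called at 4 wks, where 10.1% of all genes were. With quantile normalization, the setting used in this account, neither was.

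The probes of 1 gene did not always read alike. Hnf4a had 3 probes, and at 24 hrs post-10-day stressor the second differed by -0.95 (SE 0.34, limma adjusted p = 1.00) where the brightest differed by -0.03 and the other by 0.02. At that point the second probe read 2.42, 1.03, 2.97 and 2.64 in the Ctrl and 0.95, 1.31, 1.08, 1.16 and 2.03 in the AggE mice, with 1 Ctrl mouse among the AggE values. At 4 wks the third probe differed by 0.30 (SE 0.14, adjusted p = 0.213) and the brightest by -0.37, with opposite signs.

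Cebpa had 2 probes, which also differed in sign at 4 wks. The second read 0.29, 0.59, 0.07, 0.25, -0.00 and 0.13 in the Ctrl and 0.31, 0.83, 0.93, 0.62, 0.55 and 1.05 in the AggE mice. Its difference of 0.49 (SE 0.15, limma adjusted p = 0.057) stood against -0.21 by the brightest probe, and it was well above background in 4 of 6 Ctrl and 6 of 6 AggE mice. All probes of each gene carry the same RefSeq accession, so the files do not tell which of them reads the gene better.

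**Figure D3:**
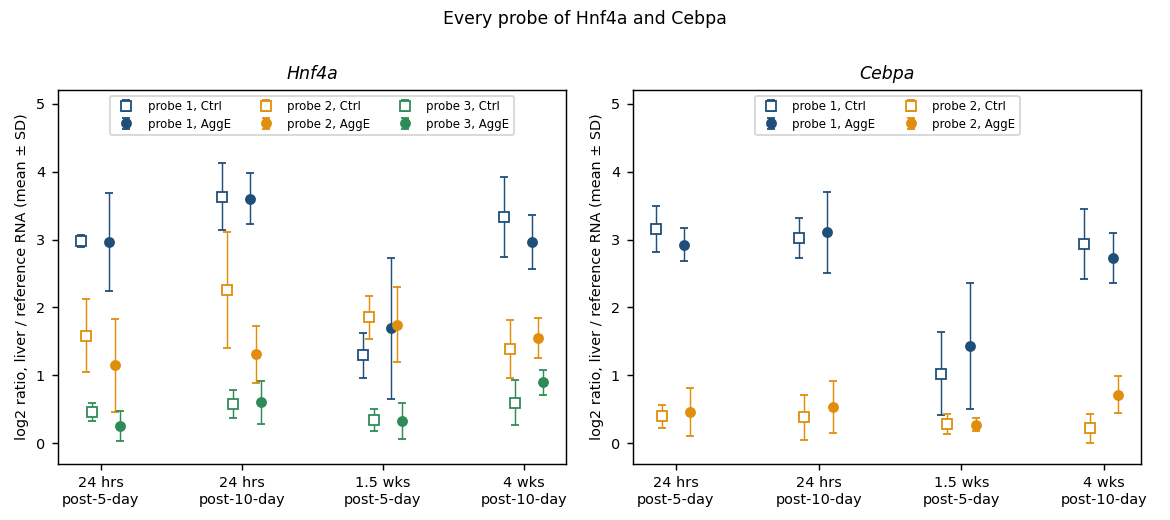
The group mean and SD of the log2 ratio of liver to reference RNA (y axis) are shown for each probe of Hnf4a and Cebpa at the 4 time points (x axis), with Ctrl and AggE marked. The brightest probe of each gene is lower at 1.5 wks than at the other points in both arms, and the other probes do not share the size of that step.

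The plainest pattern in the levels was shared by Ctrl and AggE mice. At 1.5 wks Hnf4a averaged 1.52 ± 0.79 (SD, n = 9) against 3.24 ± 0.54 (SD, n = 30) in the mice of the other 3 points, with 8 of 9 mice below the lowest of the other 30. Cebpa averaged 1.25 ± 0.78 (SD, n = 9) against 2.96 ± 0.41 (SD, n = 30), with 7 of 9 below the lowest of the other 30. Foxa3 differed by -0.77 and Foxa2 by -0.69, while Cebpd was higher by 0.38. With Feature Extraction processed signals the Foxa2 difference turned to 0.19, and with the deposited log ratios that of Cebpd turned to -0.42. These are descriptions across points that were harvested apart and shared few slides, and no test was made of them.

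The step at 1.5 wks moved with other measures and was not seen by every probe. The dimmer probes of Hnf4a, the second and the third, differed by 0.28 and -0.25 and the second of Cebpa by -0.18, against -1.72 and -1.71 by the brightest probes. Most arrays at 1.5 wks were dim, as given above, and the part of this in the result was not tested. On slides that held several points, Hnf4a read 1.25 in the 1.5 wks Ctrl mouse, whose array was bright (50.6% of probes well above background), beside 2.27 to 3.74 in 3 Ctrl mice of 4 wks. On another slide it read 0.90 to 1.93 in 3 AggE mice of 1.5 wks beside 3.73 in 1 AggE mouse of 24 hrs post-5-day stressor. On a further slide it read 3.32 in the 1.5 wks AggE mouse with the brightest array (57.5%) beside 2.92 in an AggE mouse of 4 wks, with no step. Over 46 other settings or left-out arrays Hnf4a was lower at 1.5 wks throughout, with differences of -1.95 to -0.36, and so was Cebpa, with -1.86 to -0.53, least with the Cy-5 channel alone.

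Genes listed as targets of the factors were unevenly placed at 1.5 wks. Of 8 FOXA target genes, 4 were lower by more than 1 on the log2 scale, namely Slc2a2 (-2.68), Ttr (-2.53), Cyp7a1 (-2.35) and Igfbp1 (-2.22), and the median was -1.36. Alb, the gene of albumin, was higher by 1.16 and Tat, tyrosine aminotransferase, by 0.76. Of 14 HNF4A targets 10 were lower, 4 of them by more than 1, with a median of -0.63. All 10 of 10 NR5A2 targets were lower, 3 of them by more than 1, with a median of -0.42. Of 8 ONECUT1 targets 5 were lower, 3 of them by more than 1, with a median of -0.35, and of 8 metabolic C/EBP targets 5 were lower, 1 of them by more than 1, with a median of -0.52. These lists share genes, so their counts are not separate. The 3 of ONECUT1 are Slc2a2, Ttr and Cyp7a1, already counted for FOXA. Ttr and Cyp7a1 are also among the 4 of HNF4A, and Cyp7a1 among the 3 of NR5A2. Otc is counted for both HNF4A and C/EBP. Of 15 acute phase genes 8 were lower by more than 1, with a median of -1.03. The low levels were not limited to these targets: 6 of 6 endothelial markers (median -0.96) and 6 of 6 Kupffer cell markers (median -0.73) were lower too. Some other lists lay nearer 0 or above it, with medians of -0.11 for leukocyte, 0.03 for cholangiocyte and 0.17 for stellate cell markers and of 0.29 for the C/EBP family and partners (6 of 16 lower), and the median of the 11 hepatocyte markers was -0.38. Over all genes the median was -0.00, 51.2% were lower and 1.99% were lower by more than 1.

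In the order of the 8 group means, few neighbours were further apart than the larger of their SD. Hnf4a and Cebpa each had 1 such gap, between the AggE mice of 4 wks and of 1.5 wks. Foxa3 had 1, with both groups of 1.5 wks at the bottom, and Nr5a2 had 1, with the Ctrl mice of 4 wks above the other 7 groups. Foxa1, Foxa2, Onecut1, Cebpb and Cebpd had none, so that no step in their order of groups exceeded the spread of the mice.

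Within groups, the levels of Onecut1 and Foxa2 were among the most variable of the detected genes. The SD among mice of 1 group was 0.95 for Onecut1, larger than for 99.8% of the genes detected in most mice, and 0.82 for Foxa2, larger than for 99.4%. It was 0.65 for Nr5a2, 0.58 for Hnf4a and 0.53 for Cebpa, and smaller for the others. Foxa2 was printed as 10 spots on each array, and the SD among those spots had a median of 0.22 and a highest value of 0.52, which leaves out the error of RNA preparation, labeling and hybridization.

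The 2 variable factors rose and fell together. After each group's mean was subtracted, Foxa2 and Onecut1 correlated over the 39 mice with a Pearson r of 0.83 and a Spearman rho of 0.83 (permutation within groups, two-sided, adjusted p = 0.00036 over the 36 pairs of members for both, from the smallest p the permutations can give, 1e-05). Without the 2 mice farthest in Foxa2, r was 0.80. It was 0.88 in the 18 Ctrl and 0.79 in the 21 AggE mice, and 0.81 and 0.86 within the 2 scan days (25 and 14 mice). With slide means removed as well, r was 0.84, and with the share of bright probes and the SD of log ratios of each array removed it was 0.82. Over 46 other settings or left-out arrays r ran from 0.58, with the processed signals of the scanner software, to 0.90. The mouse with the lowest Onecut1 at 4 wks, a Ctrl animal at 1.40, also had the lowest Foxa2 of its group, 2.68. The AggE mouse with the lowest Onecut1 at 24 hrs post-5-day stressor, 1.76, had a Foxa2 of 2.81, in the middle of its group.

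**Figure D4:**
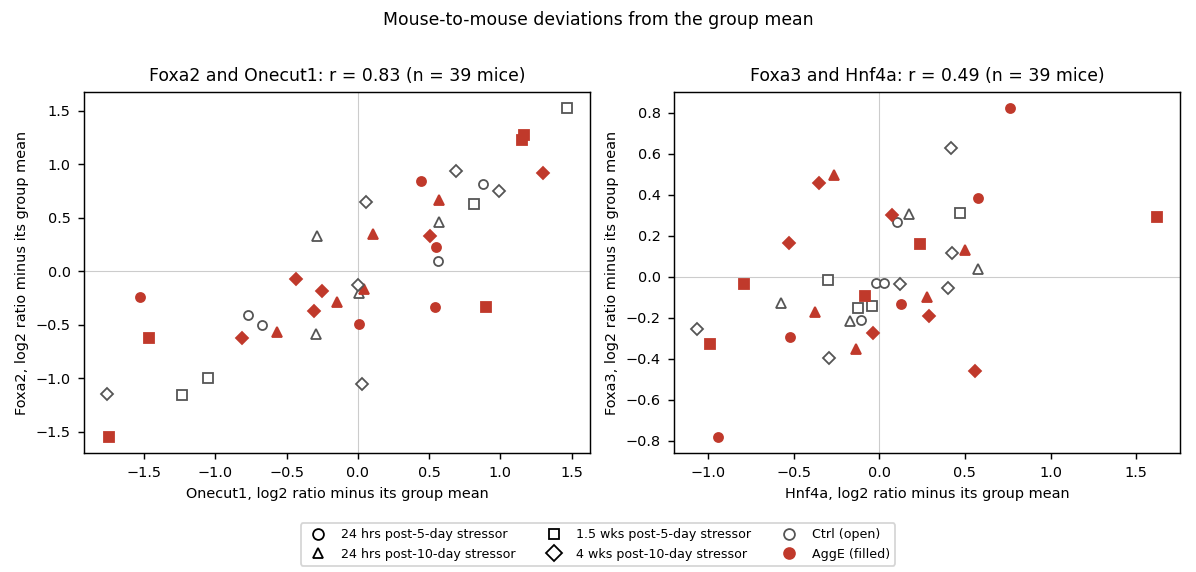
Each panel plots 1 pair of factors, with the log2 ratio of each mouse minus its group mean on both axes and 1 point per mouse, 39 in all, with the shape for the time point and the fill for the arm. The points of Foxa2 and Onecut1 (r = 0.83) lie closer to a rising line than those of Foxa3 and Hnf4a (r = 0.49).

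Of the 36 pairs, 5 others passed an adjusted p of 0.05 by Pearson's r, of which 3 did so by Spearman's rho as well. Foxa2 and Hnf4a passed by rho alone (r = 0.48 and rho 0.50, permutation adjusted p = 0.062 and 0.045). Foxa3 and Hnf4a correlated with r = 0.49 (rho 0.47, permutation adjusted p = 0.039 and 0.057), which fell to 0.37 without the 2 farthest mice and was 0.70 and 0.23 within the 2 scan days. Hnf4a and Cebpa correlated with r = 0.54 (rho 0.47, permutation adjusted p = 0.039 and 0.045), with 0.18 in the Ctrl and 0.70 in the AggE mice and 0.23 once the measures of array brightness were removed. Both follow the share of bright probes on their array, with r of 0.59 and 0.53, and the part of this in their relation was not tested further. Cebpb and Cebpd, the acute phase pair, correlated with r = 0.55 (rho 0.49, permutation adjusted p = 0.032 and 0.045), with 0.26 in the Ctrl and 0.74 in the AggE mice. The difference between arms was not tested. Foxa1 and Foxa3 had r = 0.50 (rho 0.45, permutation adjusted p = 0.032 and 0.057), with Foxa1 well above background on 22 of the 39 arrays. Cebpb and Nr5a2 were opposed with r = -0.43 (rho -0.52, permutation adjusted p = 0.045 and 0.034). These correlations were chosen after values of these arrays had been seen, and apart from Foxa3 and Hnf4a these 5 pairs lost the relation under at least 1 other processing.

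Array measures moved with several members. The residual levels of Nr5a2 followed the share of bright probes with r = 0.61 and the SD of log ratios with 0.64, and those of Cebpa followed the SD with 0.66. For Foxa2 and Onecut1 the share of bright probes gave 0.32 and 0.30 and the SD 0.56 and 0.38.

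The genes most like each member across the 39 mice, by the correlation after group means and with no test, were as follows. For Foxa2 they were Ddx19b (r = 0.86), Onecut1 (0.83) and Ptprd (0.82), and for Onecut1 they were Foxa2 (0.83), Mcm10 (0.78) and Ddx19b (0.75). For Foxa1 they were Plxna2 (0.75), A2ml1 (0.74) and Atp12a (0.73), and for Foxa3 Igsf5 (0.85), Col14a1 (0.83) and Oit3 (0.82). For Hnf4a they were Olfr812 (0.81), Cobll1 (0.81) and Colec11 (0.78), and for Nr5a2 Pla2g12b (0.79), Klkb1 (0.77) and Chd9 (0.73). For Cebpa they were Dpyd, the pyrimidine-degrading dehydrogenase (0.79), Clec4g (0.78) and F7, coagulation factor VII (0.78). For Cebpb they were Per1, a clock gene that glucocorticoids induce (0.81), Mknk2 (0.73) and Eef1g (0.73), and for Cebpd Ccn2 (0.70), Lrrfip1 (0.70) and Ier5 (0.70).

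Other genes of the network are given from lists of textbook targets, partners and cell type markers, 152 of whose 161 entries were on the array. As some genes stand in several lists, these are 126 distinct genes. At the 24 hrs points and at 1.5 wks 0 of the 8 FOXA, 14 HNF4A, 8 ONECUT1, 10 NR5A2 and 8 metabolic C/EBP target genes were called, with 1, 3, 1, 3 and 0 past the limit without adjustment at the first of them, 0 of each at the next, and 0, 0, 0, 2 and 1 at 1.5 wks, where 16.8%, 2.82% and 2.49% of all genes were past it. The largest of these fold changes was that of Ttr, transthyretin, with 1.02 at the first point (limma adjusted p = 0.166). Of the 21 other liver transcription factors 0 were called at those 3 points, with 2, 0 and 0 past the limit without adjustment.

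At 4 wks, where Foxa2 and Nr5a2 read lowest against Ctrl mice, 3 of 10 NR5A2 targets rose (median 0.21), beside 4.11% of all genes called in either direction, a share against which the counts of 1 or 2 called genes in the lists below are also to be read. They were Cyp8b1, the sterol 12α-hydroxylase of bile acid synthesis (0.95, limma adjusted p = 0.0416), Nr0b2, the repressor SHP (0.50, adjusted p = 0.0374), and Abcg8, a sterol transporter (0.21, adjusted p = 0.0353). Counted over the arrays of all points, Abcg8 was well above background on only 8, Nr0b2 on 20 and Cyp8b1 on 34. Abcg8 was thus not well above background in every mouse of 4 wks, and its small rise was read in part from dim spots. Cyp8b1 was also the 1 of 14 HNF4A targets that rose, beside a median of -0.39, and Nr0b2 the 1 of 21 other liver transcription factors. Ass1, a urea cycle enzyme, was the 1 of 8 metabolic C/EBP targets that rose (1.25, adjusted p = 0.0456), beside a median of -0.48. Among the partners of the C/EBP factors 2 of 16 fell, namely Jun (-0.58, adjusted p = 0.0237) and Creb1 (-0.36, adjusted p = 0.0407). Of the acute phase genes Serpina3n (1.33, adjusted p = 0.0318) and Crp (0.67, adjusted p = 0.0367) rose and Saa4 fell (-1.18, adjusted p = 0.0106). None of the FOXA and ONECUT1 targets was called by limma, with 1 of 8 and 2 of 8 past the limit without adjustment, beside 22.6% of all genes. Also past it were 6 of 10 NR5A2 targets (5 higher), 5 of 14 HNF4A targets (3 higher) and 3 of 8 metabolic C/EBP targets (1 higher). So were 6 of 16 of the C/EBP family and partners (0 higher), 4 of 15 acute phase genes (2 higher) and 3 of 21 other liver transcription factors (2 higher).

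**Figure D5:**
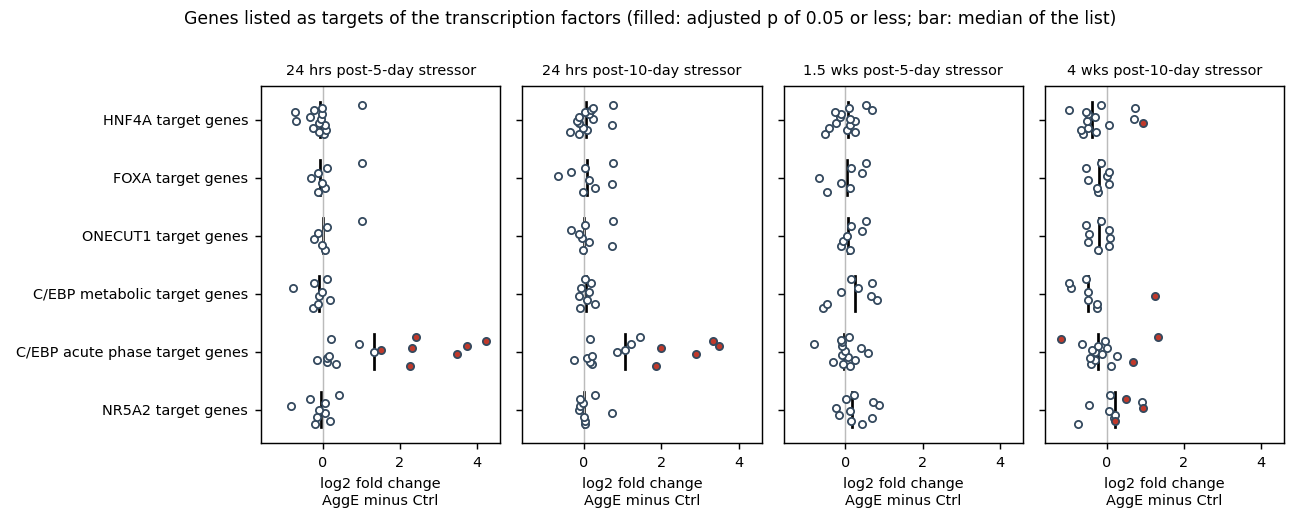
Each panel shows 1 time point, with the log2 fold change of AggE over Ctrl on the x axis and the target lists of the factors on the y axis. Points are genes, filled where the adjusted p is 0.05 or less, and bars are list medians. The acute phase targets reach 4.23 at 24 hrs post-5-day stressor, where no gene of the other target lists is filled.

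Few markers of the hepatocyte and of other liver cells were called. Of the 11 hepatocyte markers 1 fell at 4 wks (Tdo2, tryptophan dioxygenase, -0.90, limma adjusted p = 0.0385), with a median of -0.45, and 0 were called at the other points. Of the 8 cholangiocyte markers Epcam fell at 4 wks (adjusted p = 0.0244), at least 1.13-fold since it was not well above background in any AggE mouse and in no more than 1 of 6 Ctrl mice, and Spp1, osteopontin, rose 24 hrs after 5 days (1.29, adjusted p = 0.00329). Of 6 Kupffer cell, 6 endothelial, 7 stellate cell, 7 leukocyte and 7 pancreas markers 0 were called by limma at any point, and at 4 wks 2, 1, 2, 1 and 2 were past the limit without adjustment, beside 22.6% of all genes. In the same order there were 1, 0, 1, 1 and 1 at the first point (16.8% of all genes), 2, 0, 1, 0 and 0 at 24 hrs after 10 days (2.82%), and 0 of each at 1.5 wks. The Kupffer cell markers had medians of 0.09, 0.40, 0.21 and -0.35 at the 4 points in order.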

How the data were processed

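Livers of 39 mice were profiled on 2-colour Agilent arrays, liver in Cy-5 and reference RNA in Cy-3, with no dye swap. The authors deposited, per spot, median spot and background intensities from Agilent Feature Extraction (version 11.5.1.1 per the file headers), not normalized, and processed intensities that the software had background-corrected and dye-normalized. The deposited log10 ratios, in scanner files and in the series matrix, were made from the latter and served as an alternative.

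Median intensities were background-corrected (normexp, offset 50), loess-normalized within and quantile-normalized between arrays, outlier spots were dropped and spots of a probe averaged, with limma 3.58.1 in R 4.3.3 (statmod 1.5.0, data.table version 1.17.8). The 25903 probes with a RefSeq accession were tested, of which 24375 matched a gene in a list from RefSeq (assembly GRCm38.p6, also used for coordinates). A gene was read by its brightest probe. One limma fit held 8 group means, with Benjamini-Hochberg adjustment over all probes. Intervals are 95%. The number of arrays limits the precision.

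Members and lists were chosen with earlier results of these data known. All members were named, plus, per list and comparison, up to 3 risers and 3 fallers past the adjusted limit, or otherwise the gene with the largest change, of which the text gives those that bear on the factors, and the 3 genes most like each member, among genes well above background on at least 30 arrays. Where a probe was not well above background on any array of a group, a fold is a bound, set against the lowest signal among probes well above background. Correlations between members used 100000 permutations of mice within groups, of which 1e-05 is the smallest p. Replicates were separate mice per the labels. No array repeated another. Replicate numbers did not pair the mice: of 18 pairs with a shared number, 5 correlated by more than 0.1 (r from -0.45 to 0.50). Alternatives covered background, scaling, dim probes, probe averaging, slide, scan day, replicate number, array weights and left-out arrays.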

Additional observations from a re-analysis of the deposited data

Results flagged for a closer look

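Of the 72 sets of values (9 genes in 8 groups), 2 held a mouse far from the rest of its group, where chance alone marks about 1 in 20. Both were low values of Onecut1. At 24 hrs post-5-day stressor AggE mouse 4 read 1.76 and the next lowest 3.30, and at 4 wks Ctrl mouse 6 read 1.40 and the next lowest 3.17.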

How the results depend on the processing

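The counts of members called were 0 at each of the 4 points and for each of the 3 differences in the main analysis, and stayed 0 under all alternatives run, except at 4 wks, where 2 (Foxa2 and Nr5a2) were called without normalization between arrays and with Aquantile, which leaves the log ratios as they are after loess. Leaving out each array in turn gave 0 to 0 for every count. With the replicate block the counts were 0, and at 4 wks Foxa2 had an adjusted p of 0.138, with Nr5a2 not called either. Over 27 settings or left-out arrays Foxa2 at 4 wks ran from -2.14 to -0.82 and Nr5a2 from -1.83 to -0.45. With slide as a fixed block, which rests on few shared slides and could not be fitted at the 24 hrs points, Cebpd at 4 wks was -0.98 (limma adjusted p = 0.055), Hnf4a -1.35 (adjusted p = 0.120) and Cebpb -0.34, while Foxa2 and Nr5a2 were not called. Foxa2 at 1.5 wks ran from 0.69 without Ctrl mouse 1 to 1.58 without Ctrl mouse 2. Of 900 single fold changes under other settings 133 had the other sign; no member was called in the main analysis. Hnf4a, 24 hrs after 5 days, was -1.52 with the deposited log ratios (limma adjusted p = 0.216) and Foxa3 -1.86 (adjusted p = 0.317), while Foxa3, 24 hrs after 10 days, was -0.16 without normalization between arrays. For the correlations, Hnf4a and Cebpa turned to -0.070 with Feature Extraction processed signals, and Cebpb and Nr5a2 to 0.07 (0.074) without normalization between arrays and with Aquantile, where Cebpb and Cebpd gave 0.20. Foxa1 and Foxa3 missed an unadjusted p of 0.05 in 5 settings, down to 0.18 with the Cy-5 channel alone, and Hnf4a and Cebpa in 3 more. The correlations and the levels at 1.5 wks under these alternatives were chosen after seeing the data. Dimness limits Foxa1 and Foxa3 most.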
